A study of Mus musculus with 24 samples.

Results

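The ovaries of 3 mice aged 25 months were compared with the ovaries of 3 mice aged 18 months, across all genes, to describe what differed after reproductive decline. These 6 libraries were taken by age from 24 libraries of mRNA sequencing, which hold 3 mice at each of 3, 6, 9, 12, 18 and 25 months of natural aging and 6 mice given ABT263, a drug that clears senescent cells. All mice were female C57BL/6J, a common inbred laboratory strain, neither late group received a treatment, and whole ovaries were used, so each library mixes every cell type of the organ. The 12 mice of 3 to 12 months were used to place the late groups. Total counts were 16439137, 19632508 and 17822064 in the 18-month mice and 18987758, 19160572 and 16818554 in the 25-month mice, and the mice are named 1, 2 and 3 in this order throughout. Where 2 sets of values are given for a gene, the first is for 18 months and the second for 25 months. At this depth 3 counts, the smallest number read as expression, stood for 0.153 to 0.183 counts per 1000000 counts of the library (CPM, the unit of all levels below).

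In the ovary, an oocyte and the granulosa cells around it form a follicle, and the granulosa cells of growing follicles make estradiol with aromatase and secrete inhibins, activins and follistatin. Theca cells supply the androgens from which estradiol is made, and after ovulation the follicle becomes a corpus luteum, which makes progesterone from cholesterol. Once follicles run out, cycles cease, and the old mouse ovary is known for stroma, pigment-filled macrophages and infiltrating lymphocytes.

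The labelled tissue was checked first. Foxl2, a transcription factor that keeps granulosa cells female, was measured at 299.5, 197 and 266 CPM at 18 months and 136, 195 and 161 CPM at 25 months. Amhr2, the receptor for anti-Müllerian hormone, was measured at 159, 187 and 103 CPM and 131, 206 and 271 CPM, with the groups overlapping. Markers of the oviduct, the tube beside the ovary, were low in all 6 libraries, with summed levels of 34.98, 41.03 and 45.3 CPM at 18 months and 37.9, 69.9 and 50.6 CPM at 25 months over 10 genes, of which 6 did not pass the filter on low counts (Foxj1, Dynlrb2, Ccdc153, Tekt1, Tekt4 and Pifo).

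A few genes set the 18-month libraries apart from all others. Gm15446, a protein-coding gene at chr5:109923400-109943936 on GRCm38, had 7, 11 and 1 counts in the 18-month mice and 249 to 448 counts in the other 21 libraries. Its neighbour 1010001B22Rik, a noncoding RNA, had 0 counts in all 3 mice of 18 months and 6 to 34 counts elsewhere. The pseudogene Gm13301 likewise had 0 counts in all 3 mice of 18 months and 8 to 129 elsewhere. All 3 genes, singled out after their values were seen, were lower in every 18-month library than in every other library, treated mice included. With counts under 3 set to 3, Gm15446 was the 1 gene of the table that was at least 4-fold lower in this way, since the counts of 1010001B22Rik and Gm13301 in other libraries were few. In the plot of these genes in all 24 libraries, the 25-month mice had counts near those of the younger mice for Gm15446 and 1010001B22Rik. For Gm13301 the 25-month mice, with 129, 114 and 68 counts, were themselves above all other libraries, which had at most 60 counts. Since every comparison with 18 months rests on these 3 mice, it cannot be given without them, and what sets them apart was not tested.

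**Figure D1:**
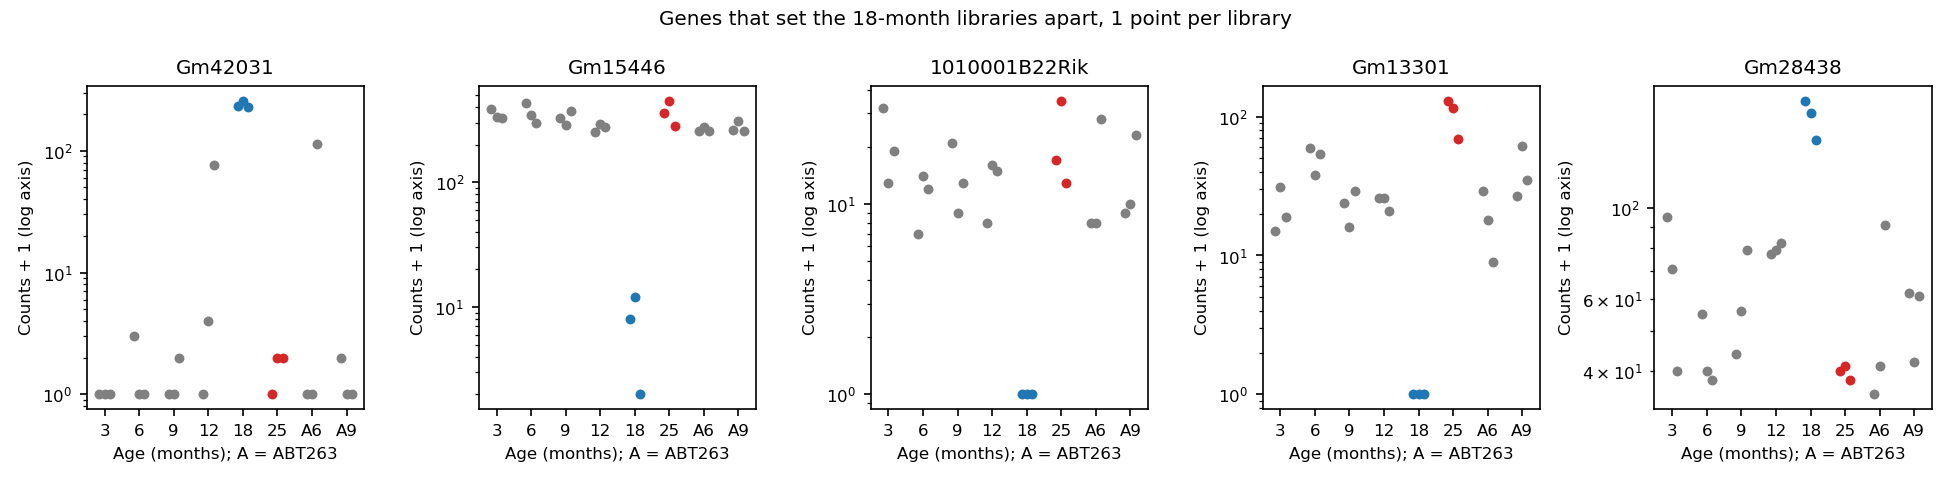
Counts plus 1 on a log axis of 5 genes in each of the 24 libraries, by age in months, with A6 and A9 for mice given ABT263 and collected at 6 and 9 months; blue points are the 3 mice of 18 months and red points the 3 of 25 months. Gm15446, 1010001B22Rik and Gm13301 are near 0 in the 18-month mice alone, and Gm42031 is above 200 counts in the 18-month mice alone.

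Within both groups the third mouse stood apart. The log2 CPM of 25-month mouse 3 correlated with those of mice 1 and 2 with Pearson's r of 0.934 and 0.951 across the 17371 genes tested, against 0.966 between mice 1 and 2. The r of 25-month mouse 3 with 18-month mice 1, 2 and 3 was 0.959, 0.967 and 0.945. Immunoglobulin genes took 3.32% and 3.30% of the counts of 25-month mice 1 and 2, but 0.876% in mouse 3, which was near the 0.786% of 18-month mouse 1. The other 18-month mice had 0.163% and 0.0652%. In 18-month mouse 3, the lipid droplet gene Plin4 was measured at 759 CPM and in mice 1 and 2 at 19.9 and 19.8 CPM, while the 12 younger mice had 112 to 1035 CPM. The 25-month mice had 20.7, 20.1 and 23.96 CPM, so of the late mice it was 18-month mouse 3 alone that lay in the range of the younger ones.

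Across 17371 genes, edgeR's quasi-likelihood test with Benjamini-Hochberg adjustment found 1 gene, the noncoding RNA Gm42031 (chr8:85125872-85132289 on GRCm38), lower at 25 months, which is 0.00576% of the genes tested, and 0 genes higher (0.0%). Gm42031 had 232, 257 and 226 counts at 18 months and 0, 1 and 1 counts at 25 months. It passed the filter on low counts through the 18-month mice alone, so it had to differ and its p is not given. Of the 17371 genes tested, 64 were under the level of the filter in all 18-month mice and 58 in all 25-month mice, and 9 and 8 of these were among the genes past the threshold in DESeq2, given next. The summed counts of Gm42031 at 25 months were 2, under the 3 counts read as expression, so no fold is given for it. Gm42031 was near 0 at most other ages too, with 75 counts in 12-month mouse 3 and 113 in 1 mouse given ABT263, so the 18-month mice again stood apart. Without the adjustment, 2371 genes had p under 0.05 (13.6% of those tested), 1464 of them higher (8.43%) and 907 lower (5.22%). Among all genes the median log2 fold change was -0.0087, and 49.0% of the fold changes were above 0.

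The number of genes past the threshold rested on the tool and on the samples in the fit. DESeq2 found 639 genes (3.92% of 16313 with an adjusted p), 465 of them higher (2.85%) and 174 lower (1.07%). With all 18 natural aging mice in one edgeR fit, which takes the spread from 6 ages, 188 genes passed (0.979% of 19201), 127 of them higher (0.661%) and 61 lower (0.318%). With the 6 mice given ABT263 added, 693 genes passed (3.55% of 19513). For 3191 genes (18.4% of those tested) the 2 groups did not overlap, with all 25-month mice above all 18-month mice for 1887 genes (10.9%) and below them for 1304 genes (7.51%). Below, a gene is said to pass in DESeq2 or in the 18-mouse fit where its adjusted p there was under 0.05, and no named gene other than Gm42031 passed in edgeR on the 6 mice. Genes are otherwise called higher or lower by their values. The p-values set the difference between the ages against the spread between mice of the same age, which is estimated partly from other genes. With 3 mice against 3, an exact permutation test can give no p under 0.1. Log2 fold changes are 25 against 18 months, given with the standard error.

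Genes of granulosa cells were the lowest at 25 months relative to 18 months. Of 11 such genes, 10 were lower, with a median log2 fold change of -2.97 against -0.0087 over all genes. In edgeR 9 of the 11 were lower at an unadjusted p under 0.05, where 5.22% of all genes were. In DESeq2 8 were lower, where 1.07% of all genes were, and in the 18-mouse fit 6 were lower, where 0.318% of all genes were. This list and those below were chosen with earlier results of these data known, so their shares are a description. Some genes are members of several lists, so the lists are not separate results. In whole ovaries, fewer cells of a type and less RNA per cell cannot be told apart, here and below. The stage of the estrous cycle at collection is not given in the sources used here. Its part in the values of follicle and luteal genes was not tested.

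Inhba, which encodes the shared chain of activin A and inhibin A, was measured at 1463, 365 and 486 CPM at 18 months and 4.07, 4.08 and 16.5 CPM at 25 months. The lowest 18-month mouse was thus above the highest 25-month mouse, and 18-month mouse 1 was even above the 12 mice of 3 to 12 months, which had 91.98 to 840.1 CPM. The ratio of the means was 93.8, with a log2 fold change of -6.58 ± 0.91 (edgeR adjusted p = 0.215, DESeq2 adjusted p = 2.08e-10, 18-mouse fit adjusted p = 0.00603).

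Fst encodes follistatin, which binds and blocks activin, and it went the same way as Inhba. It was measured at 319.7, 71.1 and 172 CPM at 18 months and 4.72, 5.597 and 8.202 CPM at 25 months, with 67.5 to 304 CPM in the younger mice. The log2 fold change was -4.96 ± 0.60 (edgeR adjusted p = 0.14, DESeq2 adjusted p = 1.86e-19). Nr5a2 encodes liver receptor homolog-1, a nuclear receptor of granulosa and luteal cells needed for ovulation. It was measured at 403, 144 and 368 CPM at 18 months and 22.2, 22.9 and 22.7 CPM at 25 months, where the 3 mice were almost alike (log2 fold change -3.79 ± 0.40, edgeR adjusted p = 0.1095). Inhba, Fst and Nr5a2 were also 3 of the 4 genes that were at least 4-fold lower in every 25-month library than in each of the other 21 libraries, with counts under 3 set to 3. The other was Epha5, an ephrin receptor, with 72, 44 and 38 counts at 18 months and 3, 2 and 0 at 25 months. Gtsf1, a gene of germ cells, had few counts at both ages, with 13, 7 and 4 at 18 months and 0, 0 and 0 at 25 months.

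Cyp19a1, the aromatase that makes estradiol, was measured at 173, 48.8 and 59.4 CPM at 18 months and 0.214, 2.04 and 4.86 CPM at 25 months. Here the younger mice varied from 3.503 to 239 CPM, and of the 25-month mice only mouse 3 was within that range. Its log2 fold change was -5.35 ± 0.97 (edgeR adjusted p = 0.257, DESeq2 adjusted p = 5.60e-04). Hsd17b1, which converts estrone to estradiol, was measured at 358, 98.3 and 179 CPM and 16.5, 22.02 and 44.1 CPM, and Fshr, the receptor for follicle-stimulating hormone, at 21.6, 6.004 and 12.1 CPM and 0.965, 1.62 and 4.101 CPM. Neither gene overlapped between the groups, and both passed in DESeq2 (adjusted p = 4.88e-06 and 0.00403).

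Inha, the inhibin alpha chain, was chosen for mention after its values were seen. It was measured at 2947, 1613 and 1758 CPM at 18 months and at 117, 339 and 1852 CPM at 25 months, so that 25-month mouse 3 had the level of an 18-month mouse while its Inhba was low (log2 fold change -1.48 ± 0.92, edgeR adjusted p = 0.483). The log2 fold change of Inha was -3.25 without 25-month mouse 3 and -0.97 without 25-month mouse 1. Inhbb, the chain of activin B and inhibin B, was measured at 736, 26.4 and 668 CPM and 3.06, 8.996 and 26.5 CPM, so that 18-month mouse 2 had the level of 25-month mouse 3 (log2 fold change -5.25 ± 1.35, DESeq2 adjusted p = 0.00564). Amh, the anti-Müllerian hormone of small growing follicles, was measured at 19.04, 10.2 and 34.4 CPM and 4.93, 9.15 and 1.99 CPM, and all 6 late mice were below the younger mice (41.4 to 384 CPM). Amhr2 was the 1 member with a higher value (0.41 ± 0.31). The plot of follicle genes by age shows 2 courses. Inhba and Fst were not below the younger values before 25 months, whereas the means of the oocyte genes Bmp15 and Gdf9 were lower at each older age from 3 months on.

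**Figure D2:**
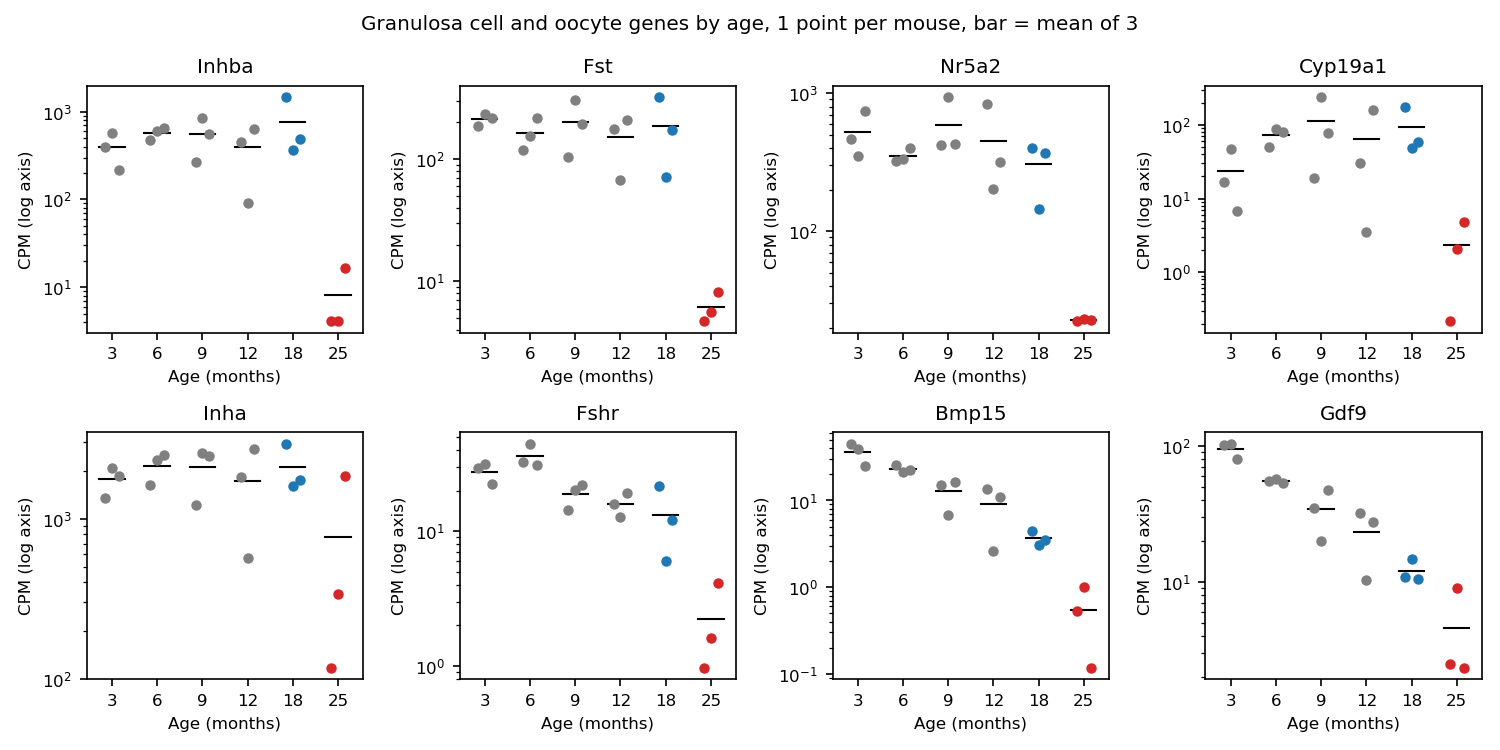
CPM on log axes of 6 granulosa cell genes and 2 oocyte genes by age in months, with 1 point for each mouse and a bar at the mean of 3; blue is 18 months and red 25 months. All 25-month values of Inhba, Fst and Nr5a2 are below all values at other ages, and the means of Bmp15 and Gdf9 are lower at each older age.

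Further genes were far lower at 25 months, several of them known from follicles. Grem1, a secreted inhibitor of bone morphogenetic proteins made by the cumulus, was measured at 132, 33.8 and 25.2 CPM at 18 months and 0.536, 0.785 and 0.645 CPM at 25 months (log2 fold change -6.62 ± 0.81, edgeR adjusted p = 0.14, DESeq2 adjusted p = 1.36e-21). The groups were far apart, and the younger mice had 1.25 to 66.6 CPM. Vcan, the matrix proteoglycan versican, was measured at 82.7, 32.02 and 138 CPM and 12.01, 8.996 and 17.7 CPM. Bmpr1b, a receptor through which granulosa cells sense oocyte factors, was measured at 105, 50.6 and 35.1 CPM and 13.6, 9.94 and 16.8 CPM. Masp1, a protease of the lectin pathway of complement, was measured at 218, 65.3 and 65.3 CPM and 3.54, 4.45 and 11.1 CPM, and Gdnf, a growth factor with a place in the list of Sertoli cell genes, at 14, 1.05 and 10.5 CPM and 0.858, 0.628 and 0.703 CPM. All 4 passed in DESeq2 and in the 18-mouse fit, and none of the 4 overlapped between the groups.

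Oocyte genes were low at 18 months and lower at 25 months. Of 23 such genes, 19 passed the filter on low counts (not Figla, Sohlh1, Lhx8 and Khdc3), and 16 of these were lower, with a median log2 fold change of -1.96. Over the members with at least 10 counts in every library the median was -0.67. In edgeR 6 had an unadjusted p under 0.05 and 1 passed in DESeq2, all lower, where 5.22% and 1.07% of all genes were lower. The 3 higher genes were Ooep, Oosp1 and Ybx2, and 10 of the 19 did not overlap between the groups, all lower, where 7.51% of all genes were. The summed level of the 23 genes was 121, 137 and 134 CPM at 18 months and 37.3, 106 and 53.4 CPM at 25 months, against 101 to 912 CPM in the younger mice.

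Bmp15, a growth factor that oocytes send to granulosa cells, was measured at 4.395, 3.05 and 3.54 CPM at 18 months and 0.536, 0.994 and 0.117 CPM at 25 months (log2 fold change -2.75 ± 0.63, edgeR adjusted p = 0.292, DESeq2 adjusted p = 0.00232). Gdf9, its close relative, was measured at 10.9, 14.7 and 10.5 CPM and 2.52, 8.996 and 2.34 CPM, and Zp1, a protein of the egg coat, at 3.05, 2.702 and 1.49 CPM and 0.214, 0.785 and 0 CPM. In each of the 3 genes, 25-month mouse 2 had the highest value of its group. The same mouse kept Padi6, an enzyme stored in oocytes, at 7.48 CPM, where mice 1 and 3 had 0.107 and 0.586 CPM and the 18-month mice had 11.2, 16.96 and 10.2 CPM. The highest oocyte levels at 25 months were thus in mouse 2, a different mouse from the one that kept Inha.

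The 7 luteal cell genes were all lower, with a median log2 fold change of -1.40, but 0 had an unadjusted p under 0.05 in edgeR and 0 passed in DESeq2, where 5.22% and 1.07% of all genes were lower. The median was -2.50 without 25-month mouse 3 and -0.49 without 18-month mouse 3. Ptgfr, the prostaglandin receptor through which the corpus luteum regresses, was measured at 55.1, 6.55 and 243 CPM at 18 months and 2.895, 5.81 and 35.6 CPM at 25 months, whereas the younger mice had 178 to 1254 CPM. Scarb1, which takes up cholesterol from lipoproteins, was measured at 703, 497 and 2049 CPM and 99.7, 157 and 908 CPM, and Prlr, the prolactin receptor, at 249, 202 and 536 CPM and 27.1, 111 and 244 CPM. In all 3 genes the third mouse was the highest of its group at both ages. Star, which carries cholesterol into mitochondria, was the member nearest to 0 (-0.081 ± 0.72), and its levels of 234, 219 and 1091 CPM and 253, 437 and 811 CPM showed the same order of mice.

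Cholesterol synthesis and uptake followed the same mice. Of 25 genes, 23 were lower, with a median log2 fold change of -0.79, and 0 had an unadjusted p under 0.05 in edgeR and 0 passed in DESeq2, where 5.22% and 1.07% of all genes were lower. Dhcr7, which makes the last step, was measured at 63.6, 36.2 and 346 CPM at 18 months and 35.7, 38.2 and 109 CPM at 25 months, with 18-month mouse 3 the highest of the 6 mice. Without 18-month mouse 3 the median of the list turned to 0.41, so its direction rested on that mouse.

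Of the 16 genes of steroid production, 15 were tested (Sult1e1 had 0 counts in the 6 mice), and 12 were lower, with a median log2 fold change of -1.20. Of the lower members, 5 did not overlap between the groups, where 7.51% of all genes were lower without overlap (Cyp19a1, Hsd17b1, Hsd3b1, Fdxr and Srd5a1), and 4 of these, all but Fdxr, had an unadjusted p under 0.05 in edgeR, where 5.22% of all genes were lower. The median was -2.19 without 25-month mouse 3 and -0.61 without 18-month mouse 3. Hsd3b1, which makes progesterone, was measured at 3860, 4026 and 9122 CPM at 18 months and 862, 2098 and 3170 CPM at 25 months (log2 fold change -1.51 ± 0.56, edgeR adjusted p = 0.332). The younger mice had 4225 to 8952 CPM. Not all endocrine genes were lower. Insl3, a peptide hormone of theca cells, was measured at 1.17, 1.601 and 2.799 CPM and 5.09, 4.97 and 5.98 CPM, and Nr0b1, which represses steroid genes, at 13.8, 16.01 and 6.23 CPM and 22.1, 28.2 and 37.2 CPM. Both were higher in all 25-month mice and passed in DESeq2 (adjusted p = 0.0142 and 0.0384). Cyp17a1, which makes androgens, divided the 25-month mice, with 197, 277 and 76.95 CPM at 18 months and 4.34, 4.03 and 750.3 CPM at 25 months. Its log2 fold change of 0.44 ± 1.73 turned to -5.50 without 25-month mouse 3, the mouse that kept Inha. Por, the third higher gene of the steroid list, is the reductase that feeds electrons to these enzymes. Nr5a1, the nuclear receptor that drives steroid genes, was measured at 389, 461 and 382 CPM and 149, 262 and 439 CPM, again with 25-month mouse 3 nearest to 18 months. The 7 theca genes had a median of -0.57, which was -1.99 without 25-month mouse 3 and -0.19 without 18-month mouse 3.

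Genes of dividing cells were lower in most cases. Of 44 genes of the cell cycle and DNA replication, 37 were lower, with a median log2 fold change of -0.79, 10 lower genes had an unadjusted p under 0.05 in edgeR and 0 passed in DESeq2, where 5.22% and 1.07% of all genes were lower. Plk1, a kinase of mitosis, was measured at 13.7, 4.85 and 20.3 CPM at 18 months and 4.61, 5.28 and 4.34 CPM at 25 months, and Ccnb1, a mitotic cyclin, at 18.6, 3.55 and 19.5 CPM and 4.45, 5.23 and 4.28 CPM. Ccnb2, its relative, was measured at 18.7, 4.003 and 21.3 CPM and 4.24, 3.4 and 6.56 CPM. In these 3 genes 18-month mouse 2 already had the level of the 25-month mice, and it also had the lowest Inhba, Fst and Nr5a2 of its group. Of 27 DNA repair genes, 23 were lower, with a small median of -0.17, and Brca1 was measured at 7.32, 2.75 and 8.68 CPM and 3.16, 1.62 and 2.402 CPM. H2afx, a histone that marks broken DNA, was measured at 35.3, 22.4 and 42.5 CPM and 23.4, 23.7 and 20.2 CPM. Chek1, a kinase of the replication checkpoint, passed in DESeq2 (adjusted p = 0.0473), but its 7.56, 3.903 and 57.9 CPM and 3.91, 2.88 and 4.804 CPM show that 18-month mouse 3 alone was high.

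Genes for showing antigens on MHC class II, which present peptides to helper T cells, were higher together. All 10 genes were higher, with a median log2 fold change of 1.60, and all 10 had an unadjusted p under 0.05 in edgeR, where 8.43% of all genes were higher at that limit. In DESeq2 8 passed, where 2.85% of all genes were higher, and in the 18-mouse fit 3, where 0.661% were. H2-Eb1, a class II chain, was measured at 179.5, 219.8 and 113 CPM at 18 months and 864, 619 and 268 CPM at 25 months. All 25-month mice were above all 18-month mice, and mouse 3 was the nearest to them (log2 fold change 1.73 ± 0.44, edgeR adjusted p = 0.298, DESeq2 adjusted p = 0.00392). Ciita, the master regulator that switches class II genes on, was measured at 17.9, 17.2 and 10.9 CPM and 68.9, 50.8 and 22.2 CPM, against 6.56 to 17.6 CPM in the younger mice. H2-DMb2, which helps to load the peptides, was measured at 1.58, 2.502 and 1.6 CPM and 15.7, 25 and 3.52 CPM. The summed level of the 10 genes was 1090, 1291 and 711 CPM and 4971, 3379 and 1399 CPM.

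Because these genes were higher together, and most of them lie close to each other on chromosome 17, the sequences before the starts of 3 are shown. The set of RefSeq promoters used here (GRCm38.p6) held a start for 7 of the 10 genes, those other than H2-Ab1, Cd74 and Ciita. The inverted CCAAT box, GATTGG on the strand of the gene, is a known element of class II promoters. Its letters were sought in both orientations, so CCAATC, the direct orientation, was counted too. Either form was in the 250 bases before the start of all 7 genes. The same held for at least 1 promoter of 16.6% of the 27025 genes of the table (14.6% of its 32851 promoters). Each of the following runs 5′ to 3′ on the strand of the gene and ends at the base before the start. The letters of either form are in capitals, and H2-Eb1 holds both forms. The match is a description of letters and was not tested as a site. H2-Aa lies at chr17:34287824-34288073 (minus strand), H2-Eb1 at chr17:34305617-34305866 (plus strand) and H2-DMb1 at chr17:34152941-34153190 (plus strand).
H2-Aa: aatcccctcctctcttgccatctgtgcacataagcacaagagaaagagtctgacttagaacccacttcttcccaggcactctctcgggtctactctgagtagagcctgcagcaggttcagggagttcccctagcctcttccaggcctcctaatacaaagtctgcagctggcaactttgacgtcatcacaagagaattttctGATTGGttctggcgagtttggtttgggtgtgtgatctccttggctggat
H2-Eb1: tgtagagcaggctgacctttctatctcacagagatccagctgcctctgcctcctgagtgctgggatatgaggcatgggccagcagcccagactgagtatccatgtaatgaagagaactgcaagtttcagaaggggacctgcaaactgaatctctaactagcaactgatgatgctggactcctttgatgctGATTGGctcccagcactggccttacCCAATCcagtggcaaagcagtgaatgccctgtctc
H2-DMb1: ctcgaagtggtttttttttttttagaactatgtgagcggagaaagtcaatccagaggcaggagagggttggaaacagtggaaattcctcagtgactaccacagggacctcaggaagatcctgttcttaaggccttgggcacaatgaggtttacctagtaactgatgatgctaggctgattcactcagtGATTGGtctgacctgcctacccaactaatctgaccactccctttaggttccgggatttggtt
H2-Aa, the first of these genes, was measured at 199, 257 and 133 CPM at 18 months and 951, 629 and 261 CPM at 25 months, and H2-DMb1 at 20.2, 28.1 and 16.97 CPM and 79.01, 58.3 and 25.8 CPM. In both genes mice 1 and 2 of 25 months were far above the 18-month mice. In H2-DMb1 mouse 3 of 25 months was below 18-month mouse 2, so the groups overlapped in this gene.

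MHC class I genes, which show peptides to killer T cells on nearly all cells, were also all higher (14 of 14, median log2 fold change 1.00), with 13 at an unadjusted p under 0.05 in edgeR and 4 past the threshold in DESeq2, where 8.43% and 2.85% of all genes were higher. H2-K1 was measured at 760.2, 824 and 485 CPM at 18 months and 1891, 1529 and 913 CPM at 25 months. H2-Q7, a nonclassical class I gene, was measured at 92.9, 84.1 and 34.2 CPM and 295, 293 and 111 CPM, and Psmb9, a subunit of the immunoproteasome that cuts the peptides, at 34.1, 33.3 and 19.5 CPM and 80.1, 78.5 and 37.6 CPM. In these 3 genes all 25-month mice were above all 18-month mice, and the highest of the younger mice had 594 CPM for H2-K1, 45.6 CPM for H2-Q7 and 25.8 CPM for Psmb9. H2-K1 and H2-Q7 have close copies, and reads of one may have been counted on another.

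Markers of B cells were higher at 25 months in all cases. All 13 genes were higher, with a median log2 fold change of 2.41, 11 had an unadjusted p under 0.05 in edgeR, 10 passed in DESeq2 and 2 in the 18-mouse fit, where 8.43%, 2.85% and 0.661% of all genes were higher. Their summed level was 56.7, 50.6 and 26.97 CPM at 18 months and 215, 231 and 60.3 CPM at 25 months, against 11.5 to 28.7 CPM in the younger mice, no marker was at 0 counts in the 6 mice, and Cd79a, a chain of the B cell receptor, was the most abundant per kilobase. Blk, a kinase of B cells, was measured at 5.04, 5.75 and 3.03 CPM and 17.1, 14.2 and 10.1 CPM (log2 fold change 1.54 ± 0.32, edgeR adjusted p = 0.263, DESeq2 adjusted p = 9.84e-04). Tnfrsf13c, the receptor for the survival factor BAFF, was measured at 0.996, 0.3002 and 0.171 CPM and 5.41, 6.54 and 1.99 CPM. Fcer2a, an IgE receptor of mature B cells, was measured at 0.703, 0.801 and 0.343 CPM and 2.895, 2.301 and 3.28 CPM. In the sum and in Tnfrsf13c, 25-month mouse 3 was the nearest to the 18-month mice, while in Fcer2a it was the highest of all.

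Genes of antibody-making plasma cells followed. Of 8 genes, 7 were higher (median 1.66), with Sdc1 the 1 lower gene and 2 past the threshold in DESeq2, Irf4 and Xbp1, where 2.85% of all genes were higher. Irf4, a transcription factor of plasma cells and activated B and T cells, was measured at 5.86, 2.201 and 0.914 CPM at 18 months and 40.2, 41.3 and 5.27 CPM at 25 months, where mouse 3 was below 18-month mouse 1. Mzb1, a chaperone for antibody secretion, was measured at 10.6, 4.003 and 2 CPM and 47.8, 88.8 and 7.32 CPM. Ighg2b, the constant region of an IgG antibody, was measured at 210.2, 102 and 24.2 CPM and 1374, 822 and 357 CPM, and Iglc1, of a lambda light chain, at 19.9, 8.61 and 2.17 CPM and 145, 445 and 58.8 CPM. Iglc3, of another lambda chain, was measured at 1.58, 0.2502 and 0.0571 CPM and 10.1, 9.78 and 3.398 CPM. These 3 antibody genes passed in DESeq2 (adjusted p = 0.0256, 0.00391 and 0.00609) and did not overlap between the groups, whereas Igkc, the abundant kappa constant region, did not pass, at 2246, 442 and 176 CPM and 8775, 7890 and 2265 CPM, with 18-month mouse 1 next to 25-month mouse 3. Igha, the constant region of IgA, went against the rest of its list of 11 genes, with 531, 312 and 244 CPM at 18 months and 205, 149.5 and 84.7 CPM at 25 months (DESeq2 adjusted p = 0.0246), and was named after its values were seen. In DESeq2 4 of the 11 were higher and 1 lower, where 2.85% and 1.07% of all genes were. In the 18-mouse fit 0 passed. Without overlap 5 of the 11 were higher and 1 lower, where 10.9% and 7.51% of all genes were.

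The variable parts of antibodies showed how many segments were in use. Of 251 annotated V, D and J segments of immunoglobulin genes, 136 were tested. Of these 124 were higher, where 49.0% of all genes were, and 22 were higher in DESeq2, where 2.85% of all genes were. Any segment that passed the filter on low counts through the 25-month mice alone had to be higher. Such segments were not set aside, so no conclusion is drawn from these numbers. At least 10 counts were found for 135, 112 and 72 segments in the 18-month mice and for 145, 146 and 102 segments in the 25-month mice, so the number of segments overlapped between the groups. Single segments differed from the total. Igkv6-17, a kappa light chain segment, had 99, 35 and 38 counts at 18 months and 767, 486 and 1775 counts at 25 months, highest in mouse 3 in spite of its low total of immunoglobulin. Near-identical segments can share reads.

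T and natural killer cell genes were higher in 25 of 26 tested cases (median log2 fold change 1.82), with Gzma, a granzyme, as the 1 lower gene. In edgeR 18 were higher at an unadjusted p under 0.05 and in DESeq2 6 passed, where 8.43% and 2.85% of all genes were higher. Ifng was not tested for low counts. The summed level was 218, 201 and 78.7 CPM at 18 months and 650.1, 690.2 and 196 CPM at 25 months, with Ccl5 the most abundant per kilobase. Cd3e, a chain of the T cell receptor complex, was measured at 7.27, 8.31 and 3.71 CPM and 34.1, 33.1 and 8.14 CPM, and Cd2, an adhesion molecule of T cells, at 4.81, 3.502 and 1.37 CPM and 20.6, 27.5 and 5.74 CPM. In both genes 25-month mouse 3 was close to the upper 18-month mice. Zap70, a kinase of the T cell receptor pathway, was measured at 7.03, 7.41 and 4.17 CPM and 20.4, 21.7 and 8.79 CPM. T cell receptor segments with at least 10 counts numbered 4, 6 and 2 at 18 months and 30, 27 and 7 at 25 months.

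Signals that organize lymphocytes were higher from a very low base. Of 18 such genes 12 were tested, and 10 were higher (median 1.30), with Ltbr and Bcl6 the 2 others. Without Lta, which passed the filter on low counts through the 25-month mice alone, 9 of 11 were higher (median 0.86). Lta, the cytokine lymphotoxin alpha, was measured at 0.117, 0.3002 and 0.114 CPM at 18 months and 2.41, 1.88 and 0.937 CPM at 25 months, and Ltb, its partner, at 9.61, 8.36 and 2.86 CPM and 41.3, 38.1 and 13.9 CPM. Cxcl13, which attracts B cells, was measured at 0.645, 0.6004 and 0.514 CPM and 2.36, 8.79 and 0.879 CPM. In all 3 genes 25-month mouse 3 was the lowest of its group. Ltb and Cxcl13 passed in DESeq2 (adjusted p = 0.00503 and 0.0323). Lta had 2, 6 and 2 counts at 18 months and 45, 36 and 16 counts at 25 months, and because of the filter it had to differ, so its test is not given. Ccl19, which draws T cells, was at 0 counts in all 6 mice, although reads may be split between its near-identical copies.

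**Figure D3:**
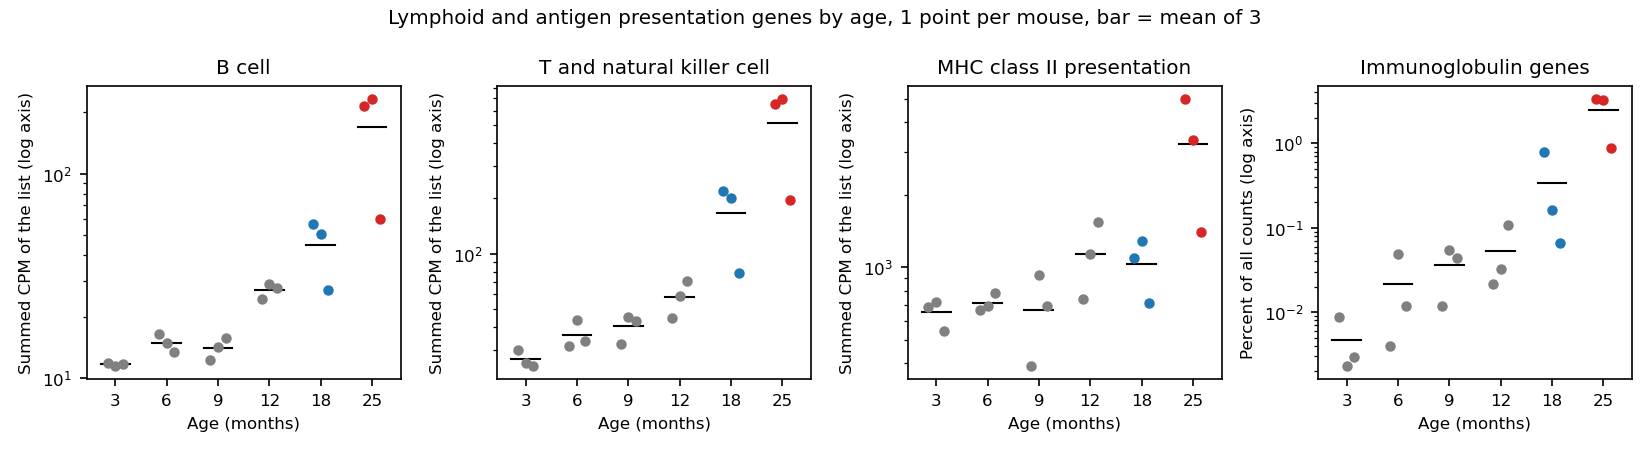
Summed CPM of B cell, T and natural killer cell and MHC class II genes and the percent of all counts on immunoglobulin genes, on log axes, by age in months, with 1 point for each mouse and a bar at the mean of 3; blue is 18 months and red 25 months. In all 4 panels 25-month mice 1 and 2 are the highest of all 18 mice and mouse 3 is the lowest of the 25-month mice.

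Chemokines were higher in 22 of 25 tested cases (median 1.22), with 4 past the threshold in DESeq2, where 2.85% of all genes were higher. Cxcl5 passed the filter on low counts through the 25-month mice alone and had to be higher, and without it 21 of 24 were higher (median 1.17). The 3 lower genes were Ccl25, Cxcl1 and Cxcl14. Ccl8, which attracts monocytes and T cells, was measured at 2.52, 2.65 and 2 CPM at 18 months and 20.2, 49.6 and 10.8 CPM at 25 months (log2 fold change 3.45 ± 0.57, edgeR adjusted p = 0.257, DESeq2 adjusted p = 8.67e-08). Cxcl9, a chemokine induced by interferon gamma, was measured at 4.34, 3.75 and 0.457 CPM and 33.2, 25.8 and 8.495 CPM, and Ccl22, made by dendritic cells and macrophages, at 2.402, 2.301 and 1.49 CPM and 9.702, 6.43 and 6.21 CPM. The groups did not overlap in any of these, and the Ccl8 of all 25-month mice was above the highest of the younger mice (5.25 CPM).

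Inflammatory signalling was higher by smaller amounts. Of 28 genes of NF-kB and interleukin-1 signalling 26 were higher (median 0.72), with Rela and Nlrp3 the others and 5 past the threshold in DESeq2, where 2.85% of all genes were higher. Il33, an alarm cytokine stored in stromal and epithelial nuclei, was measured at 16.6, 31.2 and 9.54 CPM at 18 months and 48.7, 56.5 and 46.7 CPM at 25 months. Nfkbie, an inhibitor of NF-kB, was measured at 11.4, 12.1 and 6.63 CPM and 33.3, 31.1 and 16.1 CPM, and Gsdmd, which forms pores in the membranes of inflamed cells, at 60.6, 74.9 and 43.2 CPM and 122, 99.6 and 90.9 CPM. These 3 genes did not overlap between the groups. Of 42 genes of the interferon response 39 were higher (median 0.60), with Rsad2, Bst2 and Cmpk2 lower. In edgeR 10 were higher at an unadjusted p under 0.05, where 8.43% of all genes were, and in DESeq2 2 passed, Cxcl9 and Gbp5, a share near the 2.85% of all genes that were higher. Gbp5, a GTPase of defence against bacteria, was measured at 11.4, 17.7 and 9.54 CPM and 49.4, 42.7 and 17.9 CPM, and its relative Gbp4 at 24.9, 28.5 and 12.9 CPM and 76.9, 55.4 and 28.9 CPM.

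Of 23 complement genes 19 were higher (median 0.63). C3, the central component, was measured at 504, 523 and 142 CPM at 18 months and 2466, 2388 and 744 CPM at 25 months (log2 fold change 2.22 ± 0.62, DESeq2 adjusted p = 0.00441), and C1ra, a protease of the classical pathway, at 111, 151 and 98.2 CPM and 192, 230.2 and 178 CPM. Both groups were apart in both genes, with Masp1, described above, as the largest exception. The summed levels of B and T cell markers were highest in 25-month mice 1 and 2, as were C3, Nfkbie and Gbp5. In Il33, Gsdmd and C1ra the 25-month mice were closer together. The part of B and T cells in the inflammatory lists was not tested.

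Macrophage genes were higher in 17 of 18 tested cases (median 0.64, with Cd5l lower), but only Mrc1, the mannose receptor, passed in DESeq2, where 2.85% of all genes were higher. Mrc1 was measured at 27.4, 28.8 and 30.9 CPM at 18 months and 82.6, 62.4 and 42.1 CPM at 25 months. Csf1r, the receptor for the macrophage growth factor, was measured at 88.6, 111 and 93.4 CPM and 234, 139 and 103 CPM, and Aif1, a cytoskeletal protein of macrophages, at 9.55, 12.01 and 7.48 CPM and 25.8, 20.1 and 10.4 CPM. The summed macrophage level was 4089, 6483 and 3441 CPM and 12140, 5934 and 2780 CPM, with Lyz2 the most abundant per kilobase, so that mouse 1 of 25 months was far above the others and mouse 3 was below all 18-month mice, against 629 to 2991 CPM in the younger mice. Genes of lipid-laden and fused macrophages behaved alike (18 of 20 higher, median 0.46), and the median turned to -0.16 without 25-month mouse 1. Mmp12, a macrophage elastase, was measured at 170.1, 248 and 139.6 CPM and 915, 449 and 183 CPM and was above the younger mice at both ages (3.34 to 79.9 CPM). Cd9, a tetraspanin, was measured at 121, 144 and 90.3 CPM and 297, 162 and 140.3 CPM, and Acp5, an acid phosphatase of macrophages and osteoclasts, at 57.1, 101 and 41.7 CPM and 176, 109 and 55.7 CPM.

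All 9 dendritic cell genes were higher (median 1.12), among them the growth factor receptor Flt3 at 3.52, 2.25 and 2.57 CPM and 9.49, 6.59 and 5.27 CPM. Xcr1, a chemokine receptor of the dendritic cells that activate killer T cells, was measured at 2.87, 3.45 and 1.31 CPM and 7.56, 5.81 and 4.39 CPM, and Siglech, of plasmacytoid dendritic cells, at 1.11, 1.701 and 1.31 CPM and 3.43, 2.62 and 3.16 CPM. The groups did not overlap in these 3 genes. Of the 9 genes 5 were higher without overlap, where 10.9% of all genes were. In DESeq2 1 of the 9 passed and in the 18-mouse fit 0, where 2.85% and 0.661% of all genes were higher. Of 10 mast cell genes 9 were higher (median 0.48), with the mast cell protease Mcpt4 at 2.23, 2.15 and 1.37 CPM and 7.93, 16.01 and 3.63 CPM. Tpsab1, a mast cell tryptase, was measured at 2.11, 1.65 and 0.114 CPM and 1.72, 6.28 and 1.35 CPM, so the groups overlapped in this gene. Of 11 neutrophil genes 5 were tested, with a median of 0.18 whose sign depended on single mice. Ltf, lactoferrin, was high in 18-month mouse 3 alone (0.703, 1.101 and 20.6 CPM against 1.13, 1.15 and 2.17 CPM), and the receptor gene Csf3r and the calprotectin gene S100a9 were highest in 25-month mouse 1, at 57.4 and 4.56 CPM.

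The 21 factors of the senescence-associated secretory phenotype (SASP) that the study names were higher in 19 cases, with a median log2 fold change of 0.60. The list was gathered from factors that the study names for its 6- and 9-month mice, its mice given ABT263 and its PCR. The names come from the same study, so the list is not independent evidence of its direction. In edgeR 8 were higher and 1 lower at an unadjusted p under 0.05, where 8.43% of all genes were higher and 5.22% lower. In DESeq2 1 passed (Il1b), a share near the 2.85% of all genes that were higher, and 0 passed in the 18-mouse fit. Il1b, the inflammatory cytokine interleukin-1 beta, was measured at 3.52, 1.601 and 0.457 CPM at 18 months and 8.85, 8.16 and 5.92 CPM at 25 months (log2 fold change 2.01 ± 0.64, edgeR adjusted p = 0.313, DESeq2 adjusted p = 0.0417). Icam1, an adhesion molecule for leukocytes, was measured at 42.01, 59.2 and 22.97 CPM and 109, 83.3 and 62.8 CPM, against 12.5 to 34.3 CPM in the younger mice. Pdgfa, a growth factor for stromal cells, was measured at 46.5, 52.7 and 32.5 CPM and 79.1, 63.1 and 66.1 CPM. The groups did not overlap in these 3 genes, nor in Mmp9, Fgf2, Tnfrsf1a, Timp2, Axl and Mmp3, which makes the 9 factors of the list without overlap, all higher, where 10.9% of all genes were.

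The low cytokines of the list had few counts. Il6 was measured at 0.938, 1.001 and 0.514 CPM at 18 months and 3.27, 3.45 and 0.586 CPM at 25 months and Mmp3, a stromelysin, at 0.527, 0.5504 and 0 CPM and 1.98, 4.13 and 0.762 CPM, with mouse 3 near or within the 18-month values in both. Il1a was measured at 2.75, 6.404 and 3.31 CPM and 10.6, 6.43 and 2.52 CPM, with the groups overlapping, and both late ages were above the younger mice (0.154 to 2.23 CPM). The list was not of one kind: Timp1, an inhibitor of matrix proteases, was measured at 43.8, 42.6 and 35.8 CPM and 35.4, 32.2 and 68.4 CPM (0.12 ± 0.30). Of the others, Igfbp4, Tnfrsf1b, Tnfrsf18, Cxcl10 and Ccl2 had log2 fold changes of 0.95 ± 0.38, 0.73 ± 0.29, 0.60 ± 0.29, 1.23 ± 0.68 and 0.77 ± 0.58. Leaving out 1 mouse gave values of 0.58 to 1.27 for Igfbp4, 0.39 to 0.96 for Tnfrsf1b, 0.37 to 0.84 for Tnfrsf18, 0.81 to 2.18 for Cxcl10 and 0.39 to 1.43 for Ccl2. Plaur and Ccl3, at 0.57 and 0.50, were high in 25-month mouse 1 alone. Igfbp3, which binds insulin-like growth factors, was measured at 54.3, 49.3 and 86.4 CPM and 19.7, 52.04 and 24.02 CPM (-1.03 ± 0.40), and Kitl, the ligand of the Kit receptor on oocytes, at 192, 221 and 97.98 CPM and 155, 170.3 and 174 CPM (-0.068 ± 0.28).

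**Figure D4:**
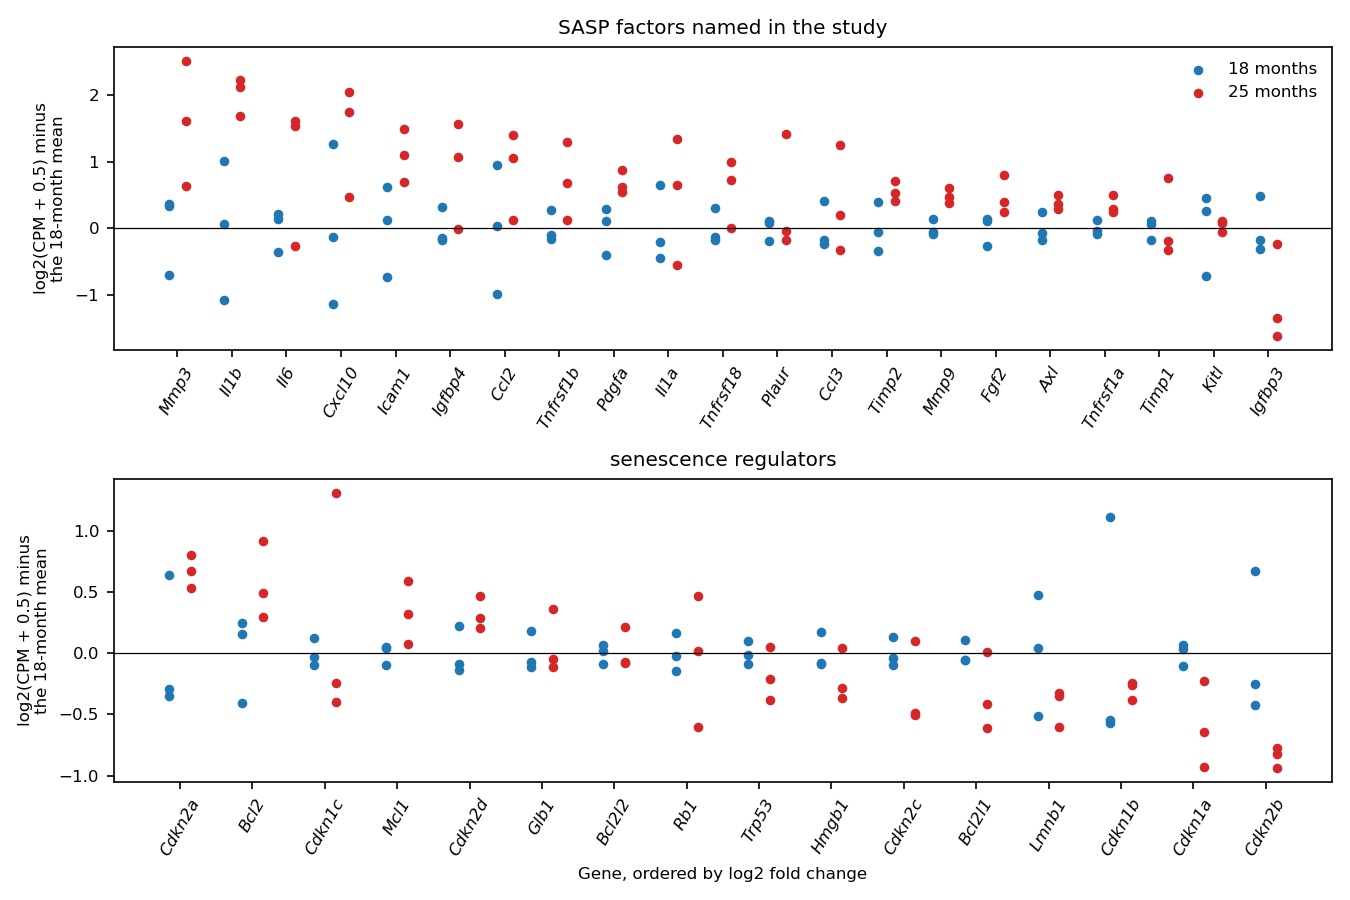
Log2(CPM + 0.5) of each mouse minus the mean of the 18-month mice, for the 21 SASP factors and the 16 senescence regulators, ordered by log2 fold change; blue points are 18-month and red points 25-month mice. For 9 SASP factors all 25-month mice lie above all 18-month mice, and the senescence regulators lie on both sides of 0.

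Regulators of senescence showed no common direction. Of 16 genes, 6 were higher and 10 lower, with a median log2 fold change of -0.11, 2 at an unadjusted p under 0.05, both lower, where 5.22% of all genes were, and 0 past the threshold in DESeq2. Cdkn2a, which encodes p16 (and, from another reading frame, ARF), a cell cycle inhibitor used as a senescence marker, was measured at 0.703, 0.751 and 1.89 CPM at 18 months and 1.72, 1.94 and 2.17 CPM at 25 months (log2 fold change 0.76 ± 0.47, edgeR adjusted p = 0.4802). The younger mice had 0.477 to 3.66 CPM, so neither late age was outside them. Cdkn1a, which encodes p21, was measured at 39.9, 44.1 and 45.1 CPM and 27.3, 22.3 and 36.7 CPM (-0.62 ± 0.20), and Cdkn2b, which encodes p15, at 3.81, 4.35 and 8.74 CPM and 2.52, 2.77 and 2.87 CPM (-1.09 ± 0.38), where the younger mice had 5.77 to 84.98 CPM. Both were lower in all 25-month mice, and Cdkn2b at 25 months was also below all younger mice. Lmnb1, a nuclear lamin that is lost in senescent cells, was measured at 64.3, 43.6 and 87.1 CPM and 49.1, 49.95 and 41.1 CPM. Bcl2, a survival protein, was measured at 29.7, 31.7 and 19.9 CPM and 50.6, 37.7 and 32.6 CPM, with all 25-month mice above the 18-month mice, and its relatives Mcl1, Bcl2l1 and Bcl2l2 had log2 fold changes of 0.31, -0.35 and -0.0078. The cell cycle inhibitors Cdkn2c, Cdkn2d, Cdkn1b and Cdkn1c had -0.31, 0.29, -0.57 and 0.41, the tumour suppressors Trp53 and Rb1 -0.21 and -0.015, the chromatin protein Hmgb1 -0.23 and Glb1, which encodes the lysosomal beta-galactosidase stained in senescent cells, 0.040. Cdkn1c, which encodes p57, stood at 69.7, 62.4 and 59.8 CPM and 159.5, 53.8 and 48.5 CPM, above the younger mice in all 6 late mice (6.37 to 24.7 CPM).

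Epithelial and vessel genes were higher in part. All 11 genes of the surface epithelium and mesothelium were higher (median 0.93), with 1 past the threshold in DESeq2, where 2.85% of all genes were higher. Lgals7, a galectin of epithelia, was measured at 50.3, 62.9 and 32.3 CPM at 18 months and 91.3, 114 and 182 CPM at 25 months, and the keratins Krt19 at 89.4, 108 and 37.7 CPM and 110.1, 199 and 182 CPM and Krt8 at 45.3, 60.99 and 29.99 CPM and 59.98, 78.9 and 95.7 CPM. Here 25-month mouse 3, low in immune genes, had the highest Lgals7, and the summed level of the list was 586, 676 and 282 CPM and 625, 908 and 1492 CPM. Vwf, the von Willebrand factor of blood vessels, was measured at 33.1, 31.3 and 20.3 CPM and 82.9, 46.3 and 123 CPM and passed in DESeq2 and in the 18-mouse fit (adjusted p = 0.00426 and 0.0304), while the 14 endothelial genes together had a median of 0.12. Cldn5, a tight junction protein of endothelium, was also higher (0.93 ± 0.27, DESeq2 adjusted p = 0.0472), and Robo4 was lower by a smaller amount (-0.42). Sox17, a gene of the oviduct list, had 0.33. The 5 tested lymphatic genes were all higher (median 0.73), with Pdpn, podoplanin, at 48.6, 57.3 and 35.8 CPM and 68.3, 83.01 and 105 CPM, Mmrn1 at 51.7, 56.8 and 28.2 CPM and 97.2, 68.99 and 71.01 CPM and Prox1, the transcription factor of lymphatic identity, at 8.73, 10.9 and 5.83 CPM and 18.5, 12.4 and 12.3 CPM. The groups did not overlap in Pdpn, Mmrn1 and Prox1, 3 of the 5, where 10.9% of all genes were higher without overlap. In DESeq2 1 of the 5 passed and in the 18-mouse fit 0, where 2.85% and 0.661% of all genes were higher.

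Stroma and matrix differed little as lists. The medians were 0.23 over 10 fibroblast genes, -0.049 over 13 smooth muscle genes, -0.23 over 35 matrix genes, 0.35 over 25 proteases and inhibitors and -0.056 over 33 genes of the TGF-beta family, where 7 lower genes passed in DESeq2, 6 of them named above and Bmp2, against 1.07% of all genes. Single genes stood out. Mgp, an inhibitor of calcification, was measured at 439, 489 and 288 CPM at 18 months and 979, 982 and 617 CPM at 25 months, and Bgn, a small proteoglycan of the matrix, at 476, 605 and 434 CPM and 785, 820 and 922 CPM. Col6a5, a chain of collagen VI, was measured at 38.8, 26.4 and 36.7 CPM and 91.1, 139 and 134 CPM, above the younger range of 7.88 to 59.97 CPM (log2 fold change 1.80 ± 0.22, edgeR adjusted p = 0.14, DESeq2 adjusted p = 1.75e-09). Cilp, a matrix protein of cartilage and fibrotic tissue, was measured at 9.43, 10.4 and 11.8 CPM and 44.4, 30.1 and 26.4 CPM, but the younger mice reached 86.3 CPM. These 4 genes were higher in all 25-month mice and passed in DESeq2. Genes of the same lists went both ways: among fibroblast genes Pdgfra had 0.71 and Ogn -0.76, among smooth muscle genes Synpo2 had 0.78, Des 0.44 and Actg2 -0.68, and among matrix and protease genes Loxl1, Timp3, Adamts15 and Mmp23 had 0.47, 0.45, 0.74 and 0.35. Each was among the 3 of smallest p in its list, and all but Pdgfra and Ogn had an unadjusted p under 0.05 in edgeR. At that limit 3 matrix genes were higher and 2 lower, and 6 proteases and inhibitors were higher and 1 lower. Of the smooth muscle genes 2 were higher and 1 lower, and of the fibroblast genes 1 and 0. Of all genes 8.43% were higher and 5.22% lower.

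Other genes with the smallest p belong to no list. Per3, a repressor of the circadian clock, was measured at 40.1, 42.9 and 38.7 CPM and 115, 128 and 94.9 CPM (log2 fold change 1.44 ± 0.13, edgeR adjusted p = 0.0904, DESeq2 adjusted p = 4.10e-15). Ccdc88c, a regulator of Wnt signalling, was measured at 25.1, 25.6 and 20.3 CPM at 18 months and 53.8, 52.3 and 46.99 CPM at 25 months, and Ppl, periplakin of epithelial cell junctions, at 30.4, 25.02 and 20.1 CPM and 59.2, 63.3 and 57.3 CPM. Cbs, which makes cystathionine from homocysteine, was measured at 25.3, 18.3 and 15.7 CPM and 2.47, 3.504 and 2.93 CPM (log2 fold change -2.77 ± 0.26, edgeR adjusted p = 0.0904). Lrp11 was measured at 87.1, 41.5 and 43.7 CPM and 6.38, 5.81 and 10.96 CPM, and Dynlt1b, a light chain of dynein with near-identical copies that can share reads, at 24.8, 25.1 and 39.3 CPM and 7.77, 6.12 and 7.79 CPM. None of these 6 genes overlapped between the groups, and all 6 passed in DESeq2, where 18.4% of all genes did not overlap and 3.92% passed. The 6 were picked by the smallest p, so this is no separate result.

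Genes of energy production differed by small amounts. Of 36 nuclear subunits of complex I 31 were lower, with a median of -0.23, and of 13 proteins encoded in mitochondria 12 were lower, with a median of -0.26. The exception was mt-Nd3, at 2.34, 3.35 and 1.77 CPM at 18 months and 5.41, 7.22 and 6.39 CPM at 25 months (DESeq2 adjusted p = 0.00888), and here the 18-month mice, and 25-month mouse 1, lay below the younger range of 6.32 to 18.6 CPM. Ndufb9, Ndufa11 and Ndufs4 were the complex I genes of smallest p, with log2 fold changes of -0.58, -0.43 and -0.66, and mt-Atp6 and mt-Nd6 had -0.35 and -0.32. Of 25 tested genes of iron and oxidative stress 15 were higher (median 0.16), with ceruloplasmin, Cp, at 52.6, 41.8 and 36.7 CPM and 96.3, 124 and 80.6 CPM (DESeq2 adjusted p = 1.86e-04), and with Cat, catalase, and Hmox1, heme oxygenase, at 0.51 and 0.45. The 14 hormone receptors and insulin-like growth factors had a median of -0.31, the 5 tested erythroid genes -0.54, the 6 Sertoli genes 0.13 and the 6 tested adipocyte genes 0.10 (0.19 to 1.93 when 1 mouse was left out), with 0 to 1 gene of each past the threshold in DESeq2 in either direction, where 2.85% of all genes were higher and 1.07% lower. Among these, Sox9, a transcription factor of Sertoli cells, was measured at 6.504, 7.06 and 4.29 CPM and 12.3, 11.7 and 13.5 CPM (DESeq2 adjusted p = 0.00585), Cldn11, a claudin of the same list, had 0.89, and Ghr, the growth hormone receptor, 0.35. The globin genes Hbb-bs, Hba-a1 and Hba-a2 overlapped between the groups, with Hbb-bs at 109.9, 34.6 and 65.99 CPM and 14.2, 21.6 and 102 CPM. Cfd, the adipocyte protease adipsin, was measured at 0.4102, 0.6004 and 0.286 CPM and 0, 58.3 and 2.81 CPM, a high value in 25-month mouse 2 alone, which also had the highest Car3, a carbonic anhydrase of fat and muscle, at 72.0 CPM. That mouse had the highest Tppp3 and Ovgp1 of the oviduct list as well, at 33.0 and 8.73 CPM, while Adipoq, Lep and Cidec did not pass the filter on low counts.

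**Figure D5:**
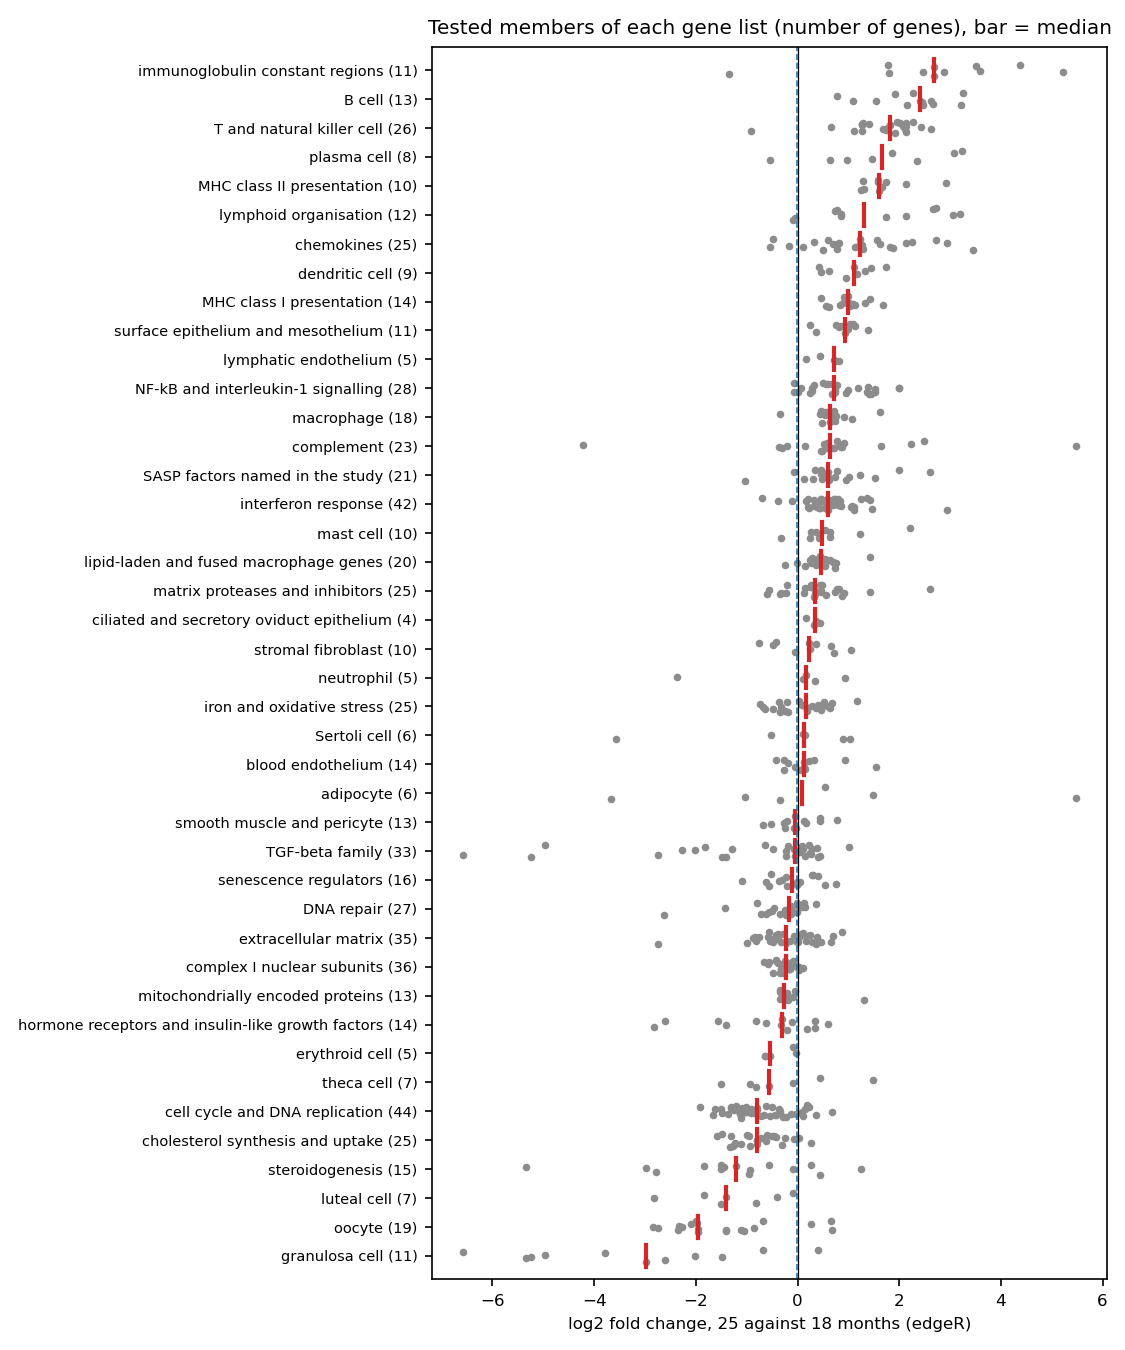
Log2 fold change of 25 against 18 months of each tested member of the 42 gene lists, with the number of genes in parentheses, a red bar at the median of the list and a dashed blue line at the median of all 17371 genes. The granulosa cell, oocyte and luteal lists have the lowest medians and the immunoglobulin, B cell and T cell lists the highest.

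The late step was set against an earlier one that shares no mice with it. Between 12 and 9 months edgeR found 0 of 17309 genes (0.0%), with 549 at an unadjusted p under 0.05 (3.17%), and DESeq2 found 8 (0.0463%). The difference of the 2 steps, tested in one edgeR fit of 12 mice, passed for 2 of 18574 genes (0.0108%), Gm15446 (6.07 ± 0.54, edgeR adjusted p = 0.0038) and Gm13301 (edgeR adjusted p = 0.00569), and for 25 in DESeq2 (0.135%), with 913 at an unadjusted p under 0.05 in edgeR (4.92%). Gm15446 was low and Gm13301 at 0 counts in the 18-month mice, as given above. For Inhba the difference of the steps was -6.05 ± 1.19 (edgeR adjusted p = 0.788), and for H2-Eb1 1.02 ± 0.63 (edgeR adjusted p = 0.904), so neither was shown to be particular to the late step. The steps span different numbers of months.

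Among genes whose late groups did not overlap, it was more often 25 than 18 months that left the range of the younger mice. Genes whose late groups overlapped were not counted, among them genes with both late ages outside that range. The counts therefore do not show how often each late age left that range over all genes. Of the 3191 genes whose groups did not overlap, 1316 had all 25-month mice outside the range of the 12 mice of 3 to 12 months and the 18-month mice not, 43 had the 18-month mice outside alone, 55 had both outside and 1777 neither. Genes higher at 25 months in DESeq2 were often higher at 12 against 3 months too, in mice of neither late group. Of 415 such genes tested there, 368 (88.7%) were higher, where 54.1% of all genes were. Of 171 lower genes, 117 (68.4%) were lower at 12 against 3 months, where 54.1% of all genes were higher. Genes are not independent of each other, and this is given as a description.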

How the data were processed

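Whole ovaries were sequenced as mRNA libraries. The authors deposited raw counts per gene in 1 table of 24 libraries, and the submitters' processing notes name STAR and mm10. The counting program, annotation release and test are not given in the sources used here. Of 54532 Ensembl genes, 54495 were matched to GENCODE M21 (GRCm38) for symbols and positions. Counts were filtered by filterByExpr, scaled by TMM and tested with edgeR 4.0.16 (R 4.3.3, quasi-likelihood) on the 6 mice, with Benjamini-Hochberg adjustment at 0.05. DESeq2 1.42.0, other scalings and filters, other samples in the fit and leaving out each mouse were the alternatives. Standard errors are the size of the log2 fold change over the square root of the edgeR F. The tests were run on simulated counts first. In those counts no mouse stood apart, unlike in the data, so no conclusion about these fits is drawn from them. Printed CPM use TMM factors over 18 mice, and totals and summed counts use library totals.

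The members and lists were chosen with earlier results of these data known. Named genes are, by rule, up to 12 protein-coding genes a direction past the threshold without overlap and at 2 CPM or more, filled up to 6 by the smallest p, the 3 of smallest p in each list, all SASP and senescence genes, and up to 4 a direction for the step difference, of which a few are not reported here. Inha, Inhbb, Amh, Amhr2, Foxl2, Padi6, Igha, Igkc, H2-Aa, H2-DMb1, Star, Cyp17a1, Plin4, Cfd, exceptions within lists, clock genes and genes that set a group apart were chosen after their values were seen. Promoters come from RefSeq (GRCm38.p6).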

Additional observations from a re-analysis of the deposited data

Results flagged for a closer look

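The step from 18 to 25 months differed from the step from 9 to 12 months for Gm15446 by 6.07 on the log2 scale (SE 0.54, edgeR adjusted p = 0.0038, 12 mice in one fit). It had 0.4102, 0.5504 and 0.0571 CPM at 18 months, 19.2, 23.4 and 16.4 CPM at 25 months and 13.2 to 20.9 CPM in the 12 younger mice. The pseudogene Gm13301 differed by 9.62 (SE 0.79, edgeR adjusted p = 0.00569). It had 0, 0 and 0 counts at 18 months and 129, 114 and 68 counts at 25 months, a level at least 102 times higher at 25 months than 3 counts over the 18-month group would give. Its fitted difference depends on the count added before logs and is no bound. In both genes the 18-month mice were below all other libraries, and for Gm13301 the 25-month mice were above them. What sets these mice apart was not tested. Gm28438, another pseudogene, went the other way, with 182, 170 and 146 counts at 18 months and 39, 40 and 37 counts at 25 months, while the step difference missed the threshold (edgeR adjusted p = 0.0534).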

How the results depend on the processing

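The number of genes past the threshold was 1 with RLE factors and 1 with TMM factors computed without immunoglobulin, T cell receptor and mitochondrial genes, but 63 with no filter on low counts, 0 with at least 10 counts in every library, 639 in DESeq2, 188 with 18 libraries and 693 with 24 libraries in one fit. Leaving out 1 mouse gave 0 to 6 genes, 6 without 25-month mouse 3, Per3 among them, and 0 without 18-month mouse 3 or 25-month mouse 2. The replicate numbers did not pair the mice (same-number correlations of 0.138, 0.0772 and 0.241), and the fit with the replicate block found 0 genes. For the step difference the count was 25 in DESeq2, 5 with no filter, 1 with the replicate block and 2 to 3 without 1 mouse, and for 12 against 9 months it was 8 in DESeq2 and 1 with no filter.

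Over 14 alternatives, the median log2 fold change of 34 of 42 lists and the value of 176 of 200 named genes kept their sign, and the granulosa, oocyte, B cell, T cell and both MHC lists are among the 34. Apart from leaving out a mouse, the sign turned for the adipocyte median with at least 10 counts (-0.33), for the neutrophil median (-0.111), Kitl (0.00567), Cyp17a1 (-4.05) and Star (0.187) with the replicate block, for Rb1 with 18 (0.0232) and 24 libraries (0.0258), for Cry2 with RLE (0.00488), TMM without immunoglobulin, T cell receptor and mitochondrial genes (0.000466), DESeq2 (0.00506), at least 10 counts (0.00914), 18 (0.0347) and 24 libraries (0.0347), and for Bcl2l2 with RLE (0.000151), DESeq2 (6.64e-05), at least 10 counts (0.00244), 18 (0.0282) and 24 libraries (0.0272). Without 1 mouse, the medians that turned ranged as follows: cholesterol synthesis and uptake -1.74 to 0.405, lipid-laden and fused macrophage genes -0.162 to 0.817, smooth muscle and pericyte -0.166 to 0.0603, blood endothelium -0.0747 to 0.227, neutrophil -0.551 to 0.723, erythroid cell -1.92 to 0.33 and Sertoli cell -0.199 to 0.392. Of the 34 lists that kept their sign, 21 had a median that moved by over 1.5 times when 1 mouse was left out: senescence regulators -0.176 to -0.0281, steroidogenesis -2.19 to -0.612, interferon response 0.301 to 0.957, extracellular matrix -0.501 to -0.0263, matrix proteases and inhibitors 0.198 to 0.481, TGF-beta family -0.129 to -0.00532, iron and oxidative stress 0.0397 to 0.188, cell cycle and DNA replication -1.17 to -0.428, DNA repair -0.239 to -0.115, mitochondrially encoded proteins -0.354 to -0.142, complex I nuclear subunits -0.312 to -0.112, lymphoid organisation 0.738 to 2.21, hormone receptors and insulin-like growth factors -0.403 to -0.187, oocyte -3.41 to -1.39, theca cell -1.99 to -0.189, luteal cell -2.5 to -0.493, stromal fibroblast 0.0912 to 0.3, surface epithelium and mesothelium 0.535 to 1.22, ciliated and secretory oviduct epithelium 0.0373 to 0.704, macrophage 0.226 to 0.963 and mast cell 0.128 to 0.969. The adipocyte median was 0.186 to 1.93 in the same way. With other alternatives, medians that kept their sign moved by over 1.5 times for the oocyte list with at least 10 counts (-0.665), theca genes (-1.49), lipid-laden macrophage genes (0.239), Sertoli genes (0.076) and adipocyte genes (0.0308) with the replicate block, adipocyte (1.76), neutrophil (0.33) and erythroid genes (-0.0856) with no filter, neutrophil genes with at least 10 counts (0.351), and with 18 and 24 libraries for adipocyte (2.1 and 2.1), erythroid (-0.279 and -0.287), smooth muscle (-0.0139 and -0.016) and TGF-beta family genes (-0.0213 and -0.0253), and with 24 libraries for neutrophil genes (0.299) and senescence regulators (-0.0737). Of the named genes that kept their sign, 52 moved by over 1.5 times on the log2 scale without 1 mouse. The log2 fold changes that turned were Plaur -0.143 to 0.835, Ccl3 -0.108 to 0.805, Timp1 -0.313 to 0.317, Kitl -0.343 to 0.161, Cdkn1b -0.857 to 0.233, Cdkn1c -0.353 to 0.692, Glb1 -0.133 to 0.143, Bcl2l2 -0.121 to 0.0508, Rb1 -0.298 to 0.215, Dhcr7 -2.06 to 0.265, Tppp3 -0.0955 to 0.704, Ovgp1 -0.354 to 0.712, Plin4 -4.22 to 0.0927, Ltf -2.92 to 0.675, S100a9 -0.551 to 0.751, Hba-a2 -2.05 to 0.604, Per1 -0.211 to 0.318, Cry2 -0.127 to 0.109, Clock -0.135 to 0.0149, Nr1d1 -0.173 to 0.454, Sdc1 -0.839 to 0.182, Cd5l -1.01 to 0.719, Cyp17a1 -5.5 to 1.02 and Star -0.629 to 1.11.

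The adjusted p of a named gene moved with the alternative, with ranges of 2.08e-10 to 0.563 for Inhba, 1.86e-19 to 0.505 for Fst, 1.88e-20 to 0.447 for Nr5a2, 1.36e-21 to 0.505 for Grem1, 0.00392 to 0.613 for H2-Eb1, 9.84e-04 to 0.604 for Blk, 8.67e-08 to 0.549 for Ccl8, 0.0417 to 0.613 for Il1b, 1.75e-09 to 0.455 for Col6a5 and 4.10e-15 to 0.431 for Per3 over edgeR and DESeq2 fits. Depth limits the low genes, since 3 counts stood for 0.153 to 0.183 CPM and differences under that level were not detectable.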

Other observations

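Per3 was among the genes of smallest p, so the other genes of the circadian clock were looked at after the values were seen. The clock runs on Arntl and Clock, which drive transcription of the Per and Cry repressors and of the output genes Dbp and Tef. Per2 was measured at 29.5, 39.2 and 22.7 CPM at 18 months and 63.8, 76 and 81.1 CPM at 25 months (DESeq2 adjusted p = 1.20e-04). Arntl, which peaks when the repressors are low, had 34.9, 27.8 and 31.2 CPM and 16.7, 10.04 and 14.4 CPM (DESeq2 adjusted p = 2.53e-04), so that Arntl was lower and Per2 and Per3 higher in all 25-month mice. Tef, Nr1d2 and Bhlhe40 were higher in DESeq2 as well, with log2 fold changes of 0.87, 0.69 and 0.94. Of all genes 2.85% were higher and 1.07% lower in DESeq2. Npas2 was lower without passing (-0.58), and Per1 did not differ beyond its error (0.088 ± 0.26). The Per3 values of 18 months lay at the low end of the younger mice (37.4 to 117 CPM). Those of 25 months lay in the upper part of that range, apart from mouse 2, which was above it at 128 CPM. Of the other clock genes looked at, Dbp, Bhlhe41, Cry1, Nr1d1, Cry2, Clock and Ciart did not pass in DESeq2, with log2 fold changes of 0.83 ± 0.39, 1.09 ± 0.43, 0.21 ± 0.16, 0.11 ± 0.35, -0.0028 ± 0.16, -0.075 ± 0.12 and -0.32 ± 0.36. None of the clock genes named here passed in edgeR on the 6 mice. The hours at which the ovaries were taken are not given in the sources used here, and their part in these values was not tested.

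Of single receptor segments, Trbv3, a T cell receptor segment, had 5, 0 and 1 counts at 18 months and 47, 42 and 22 counts at 25 months. Like Igkv6-17, it was at least 4-fold higher in all 25-month libraries than in each of the other 21 libraries, with counts under 3 set to 3.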
